A study of Eriobotrya japonica with 9 samples.

Results

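The leaf transcriptome of loquat (*E. japonica*) seedlings given melatonin before NaCl was compared with that of seedlings given NaCl alone. Loquat is an evergreen fruit tree of the Rosaceae. The comparison covered 22697 genes, which had an FPKM of at least 1 in at least 3 of the 9 libraries, out of 43996 genes in the deposited table. FPKM is a read count scaled by the length of the gene and by the size of the library.

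There were 3 groups of 3 leaf libraries, all collected on day 10. MTST plants were irrigated at the roots with 150 µmol/L melatonin and then exposed to 200 mmol/L NaCl. ST plants received water and then the same NaCl dose, and CK plants received water only. The plants were raised by tissue culture and then transplanted. No group received melatonin without NaCl, so a change that melatonin makes in unstressed leaves cannot be told apart from one that it makes under salt. The labels number the replicates but do not say that the libraries of MTST came from separate plants, so the p-values measure the spread between these libraries.

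Salt lowers the water that roots can take up and loads the leaf with sodium and chloride. Leaves respond by closing stomata, which limits photosynthesis, and by changing the hormones abscisic acid, ethylene and jasmonic acid. Melatonin is an indoleamine that plants make from tryptophan. It is known as an antioxidant and as a regulator of stress responses.

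The gene table holds gene ontology (GO) terms and KEGG pathway maps but no gene names, so genes are described here by their annotated term. The GO terms include ones for animals, such as nervous system development, so membership of a GO list is approximate. Of the genes tested, 12590 had a GO term, 5078 had a KEGG map and 8977 had neither. Levels are given as normalised TPM, that is FPKM rescaled to the same sum in every library (TPM) and then divided by a factor for each library. Levels on this scale can be compared between genes, since TPM is per gene length. A difference is given as a log2 fold change of MTST over ST on the log2(normalised TPM + 1) scale, with its standard error (SE) and the Benjamini-Hochberg adjusted p of limma over all genes tested. Genes with an adjusted p of at most 0.05 are called higher or lower.

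The libraries held 13048770 to 14468499 reads. The 10 most abundant genes took 5.87% ± 0.285 (SD, n = 3) of TPM in ST, 9.77% ± 0.516 in MTST and 11.3% ± 0.193 in CK. Leaf identity was checked with genes for the photosynthetic apparatus, and these were abundant in every library, at 3.63% to 6.91% of TPM for the KEGG map Photosynthesis. Of the 9 pairs of libraries within a group, ST replicates 1 and 2 differed most from each other. In several genes below, 1 of these stood apart from the other ST libraries, and each library's value is given for that reason. In whole leaves, fewer cells of a type and less RNA per cell cannot be told apart.

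In MTST, 3557 genes (15.7%) were higher than in ST, 3135 (13.8%) were lower and 16005 (70.5%) passed neither way. Large differences were more often falls. The count of genes that were at least 2-fold higher was 499 (2.20%), and the count at least 2-fold lower was 1078 (4.75%). Without ST replicate 3, 2580 genes were higher and 1847 were lower. The median log2 fold change over all genes was 0.004. On TPM without the library factors, this median moved to -0.21, and 1854 genes (8.17%) were then higher and 6912 (30.5%) lower. Statements on direction below hold on both scales unless the exception is given. Genes that passed neither way may be called lower on TPM without factors.

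In the same fit, 5190 genes (22.9%) were higher and 5482 (24.2%) lower in ST than in CK. Between MTST and CK, 4015 (17.7%) were higher and 4387 (19.3%) lower. The contrast of ST with CK uses the same ST libraries as that of MTST with ST, so the values of both are set side by side and nothing is read from their relation.

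Most tested genes of photosynthesis were higher in MTST. The light-harvesting antenna proteins bind chlorophyll and pass light energy to the photosystems, and 24 of their 27 tested genes were higher in MTST, while 2 were lower. Their median log2 fold change was 0.91. On the map Photosynthesis, which holds the subunits of the photosystems, the electron carriers and the ATP synthase, 45 of 61 genes were higher and 4 were lower, with a median of 0.76. Of all 114 KEGG maps with at least 10 tested genes, these maps had the largest shares of higher genes, at 88.9% and 73.8%.

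The summed level of the antenna genes was 29590, 27640 and 29830 normalised TPM in the ST libraries and 51280, 54110 and 50870 in the MTST libraries. In CK it was 65350, 64820 and 77760. The groups did not overlap, and all MTST libraries lay between those of ST and those of CK. The Photosynthesis map had the same order, with sums of 32230 ± 1190 in ST, 53470 ± 3340 in MTST and 76450 ± 3450 in CK (SD, n = 3 each). In ST against CK, 25 antenna genes were lower and 1 was higher, with a median log2 fold change of -1.29.

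**Figure D1:**
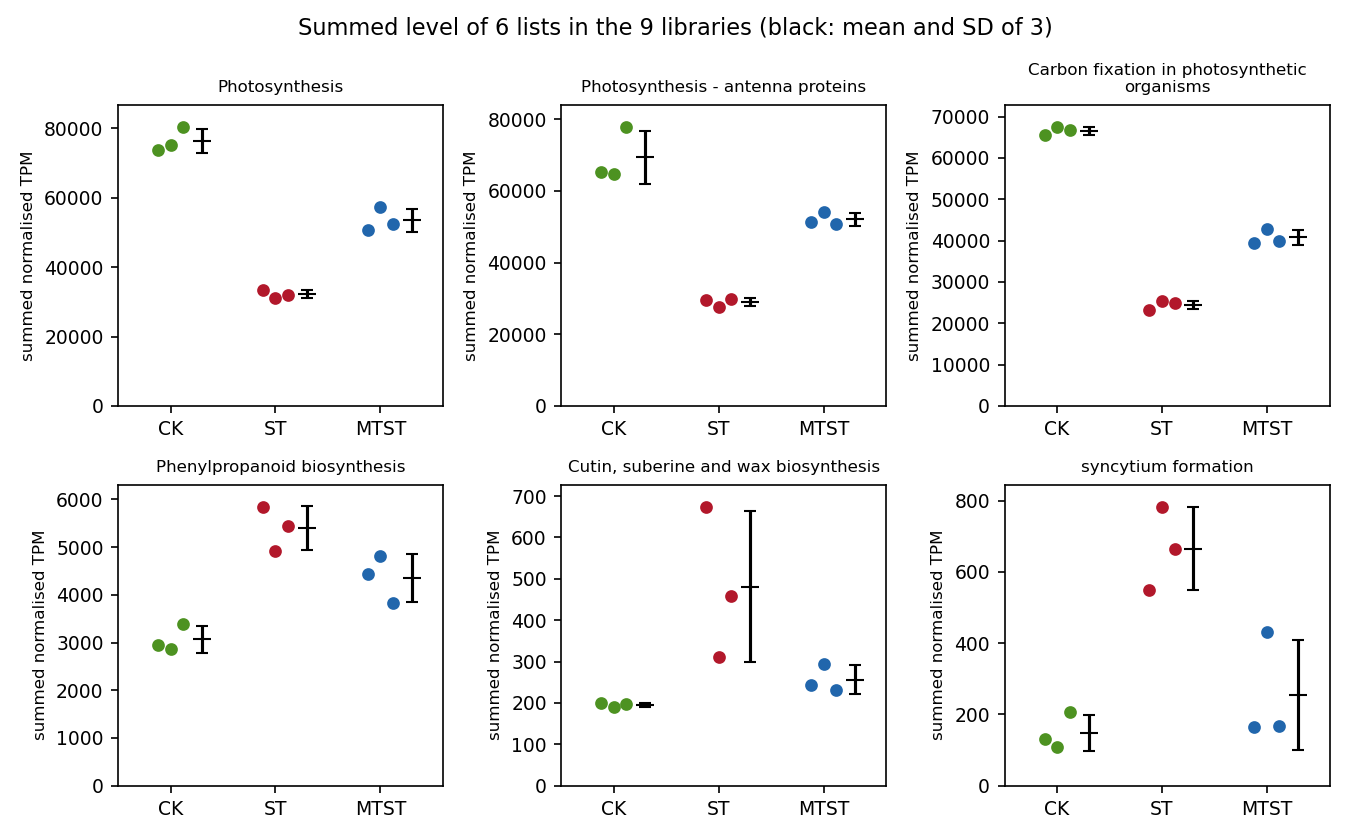
Summed normalised TPM of the genes on 6 lists (y axis, linear from 0) in the 3 libraries of CK, ST and MTST (x axis). Coloured points are libraries, and the black mark with its bar is the mean and SD of 3. In the upper row, the MTST libraries lie above those of ST and below those of CK, for example at 50810 to 57210 against 31170 to 33520 in ST for Photosynthesis. In the lower row, ST is the highest group.

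The largest rise on the Photosynthesis map was in a gene annotated with photosynthesis and the response to light. It had 723, 998 and 957 normalised TPM in ST, 2340, 2950 and 2450 in MTST and 2730 to 2980 in CK. Its log2 fold change was 1.54 (SE 0.15, limma adjusted p = 0.00013). A chlorophyll-binding antenna gene went from 423, 393 and 443 in ST to 920, 950 and 908 in MTST, a log2 fold change of 1.14 (SE 0.10, limma adjusted p = 9.2e-05). Genes named from a map or GO list were picked only if ST and MTST did not overlap, so the lack of overlap gives no added support. Enzyme families and TIFY genes were described without that condition.

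The 2 lower antenna genes ran the other way. The gene with the larger fall had 654, 579 and 817 normalised TPM in ST and only 90.6, 85.3 and 86.3 in MTST, close to the 54.5, 61.4 and 62.0 of CK. Its log2 fold change was -2.94 (SE 0.12, limma adjusted p = 6.7e-06), the largest change of any gene on the map in either direction. The table annotates it to the thylakoid membrane of the chloroplast.

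Genes of the thylakoid and of chlorophyll were also more often higher than lower. Plastoglobules are lipid bodies of the thylakoid that store quinones and tocopherols, and 46 of 63 genes with this GO term were higher and 4 lower. Some are antenna genes themselves, so this list is not separate from the map. For the synthesis of chlorophyll, 9 of 17 genes were higher and none lower. On the wider map of porphyrin and chlorophyll metabolism, 23 of 59 were higher and 2 lower with a median of 0.19, which became 10 higher and 8 lower with a median of -0.02 on TPM without factors. The members that moved also included enzymes that take chlorophyll apart. A chlorophyll(ide) b reductase, which starts the breakdown of chlorophyll b, went from 80.6, 111 and 94.9 in ST to 179, 177 and 203 in MTST.

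The map of carbon fixation was more mixed. On this map, which holds the Calvin cycle, 41 of 89 genes were higher and 12 lower, with a median of 0.27. The median fell to 0.06 on TPM without factors, with 36 higher and 26 lower. A ribulose-phosphate 3-epimerase, an enzyme that regenerates the CO2 acceptor, had 151, 201 and 173 normalised TPM in ST and 399, 439 and 436 in MTST (log2 fold change 1.28, SE 0.12, limma adjusted p = 0.0001). A fructose 1,6-bisphosphatase had 87.1, 88.4 and 81.3 in ST and 185, 182 and 209 in MTST. Both genes were picked for having no overlap between ST and MTST.

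Carbonic anhydrase speeds the exchange of CO2 and bicarbonate and is abundant in leaves. Of its 6 tested genes, 3 were higher and none lower. The most abundant one had 976, 1010 and 991 normalised TPM in ST, 2170, 2140 and 2310 in MTST and 4120 to 4500 in CK, with a log2 fold change of 1.15 (SE 0.10, limma adjusted p = 0.0001). A phosphoenolpyruvate carboxylase on the carbon fixation map, which fixes bicarbonate outside the Calvin cycle, fell instead. Its levels were 19.8, 20.4 and 20.5 in ST and 6.64, 6.72 and 6.22 in MTST.

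Photorespiration recycles the product of the oxygenase reaction of Rubisco. On the map of glyoxylate and dicarboxylate metabolism, which includes it, 32 of 81 genes were higher and 6 lower. On the map of nitrogen metabolism, 15 of 34 were higher and 4 lower, with a median of 0.34. Glutamine synthetase (glutamate-ammonia ligase) binds ammonium into glutamine. Both of its genes with that GO term were higher, and the larger rise was from 93.4, 76.6 and 81.9 in ST to 160, 148 and 173 in MTST (log2 fold change 0.93, SE 0.10, limma adjusted p = 0.00018). A glutamate dehydrogenase, which can release ammonium from glutamate, changed the other way, from 21.3, 23.2 and 27.5 in ST to 3.82, 2.10 and 3.09 in MTST (log2 fold change -2.66, SE 0.23, limma adjusted p = 8.8e-05).

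The maps of thiamine metabolism, with 14 of 29 genes higher and none lower, and of sulfur metabolism, with 17 of 41 higher and 5 lower, were also more often higher. Iron is a cofactor of the photosynthetic electron chain. Of 14 genes with the GO term cellular iron ion homeostasis, 9 were higher and none lower, with a median of 0.74. The largest rise among them was in a gene also annotated with the sequestering of iron. It had 60.4, 92.2 and 88.0 normalised TPM in ST, 237, 254 and 221 in MTST and 277 to 283 in CK (log2 fold change 1.58, SE 0.14, limma adjusted p = 9.3e-05).

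**Figure D2:**
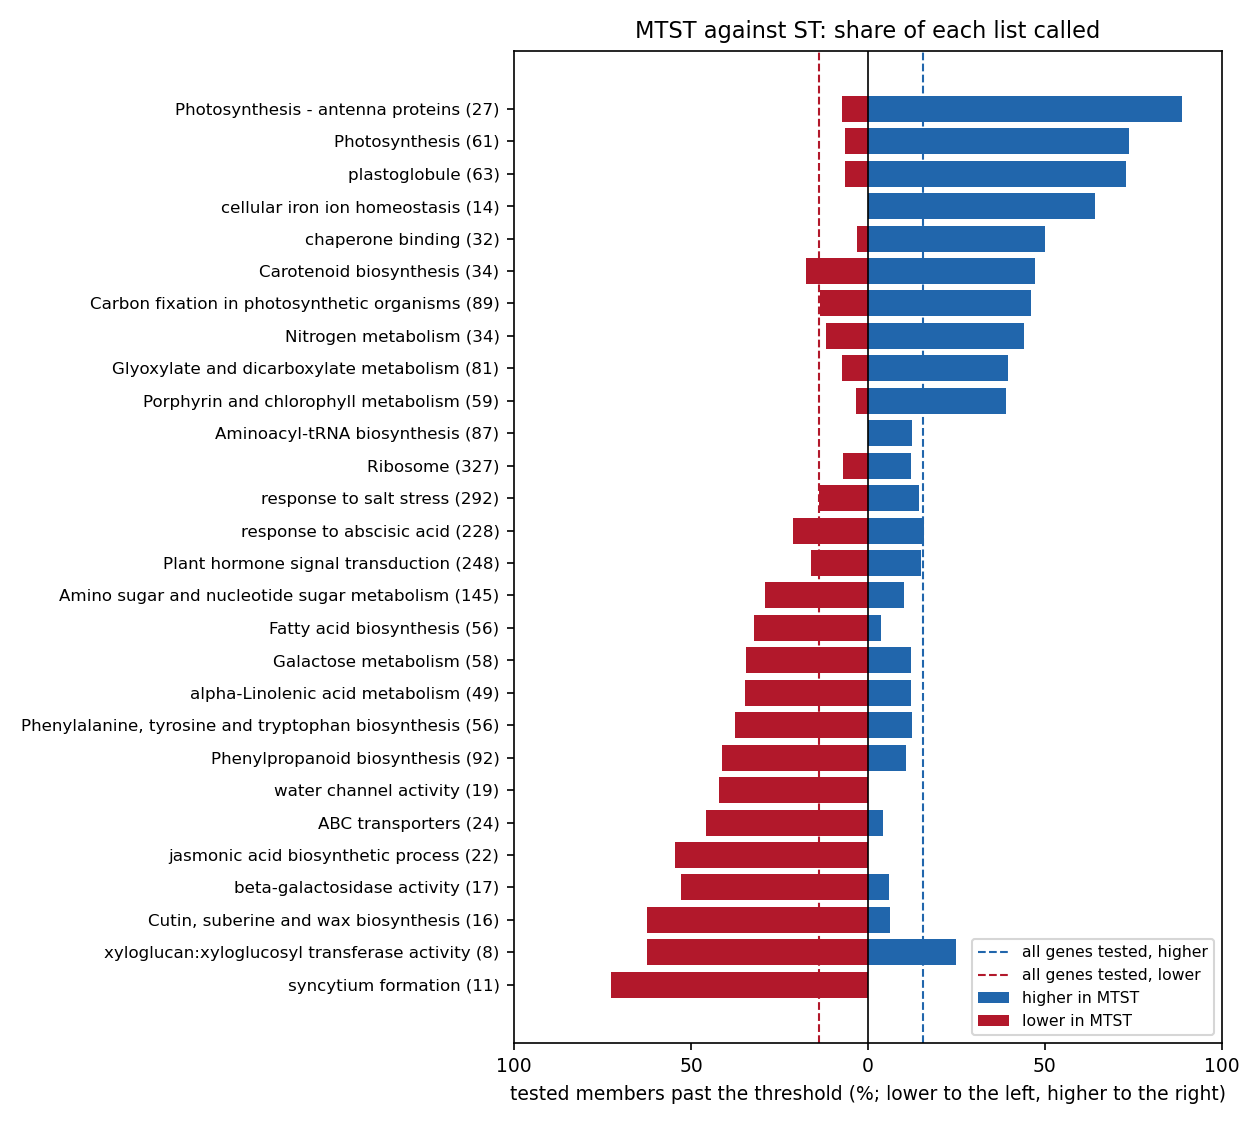
Share of the tested members of 28 lists (y axis, with the number tested) that were higher (blue, to the right) or lower (red, to the left) in MTST than in ST by limma at an adjusted p of at most 0.05, in percent (x axis). Dashed lines give the shares over all genes tested, 15.7% higher and 13.8% lower. Light capture and carbon fixation stand at the top, the salt response list lies near both dashed lines, and wall and surface lists stand at the bottom.

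Abscisic acid is the hormone that closes stomata and is made from carotenoids. On the map of carotenoid biosynthesis, 16 of 34 genes were higher and 6 lower, and the split was 7 to 9 on TPM without factors. The steps specific to abscisic acid moved in different directions. The 9-cis-epoxycarotenoid dioxygenase cuts the carotenoid and is the first of these steps. Its most abundant gene had 127, 121 and 109 normalised TPM in ST, 52.0, 52.9 and 46.8 in MTST and 199 to 214 in CK (log2 fold change -1.22, SE 0.08, limma adjusted p = 4.3e-05). In this gene MTST was further from CK than ST was. Of the 3 tested genes of this family, 2 were lower and none higher.

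Xanthoxin dehydrogenase acts next, turning the cut product into abscisic aldehyde. Both of its genes were higher in MTST. The more abundant had 34.9, 40.8 and 37.9 normalised TPM in ST and 112, 116 and 117 in MTST (log2 fold change 1.58, SE 0.08, limma adjusted p = 1.6e-05), and CK had 102 to 109. The other had 18.2, 15.2 and 12.2 in ST and 48.7, 54.5 and 58.3 in MTST (log2 fold change 1.77, SE 0.25, limma adjusted p = 0.00073). In the first of these, all MTST libraries were slightly above CK, and in the other the range of MTST overlapped with the 23.8 to 51.8 of CK.

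Abscisic acid 8'-hydroxylase inactivates the hormone. Of its 6 tested genes, 2 were lower, 1 was higher and 3 passed neither way. The weaker of the lower calls (limma adjusted p = 0.041) was lost when any single ST or MTST library was left out. A gene that passed neither way was lower on TPM without factors (limma adjusted p = 0.018). The largest change was in a gene with 163, 240 and 199 normalised TPM in ST, 58.1, 49.9 and 74.5 in MTST and 20.4 to 22.5 in CK (log2 fold change -1.71, SE 0.16, limma adjusted p = 0.00012). The higher one was more abundant in CK, at 209 to 278, and had 107, 89.7 and 93.7 in ST and 180, 125 and 144 in MTST. On TPM without factors this gene had an adjusted p of 0.083. Abscisic acid receptors (GO term abscisic acid binding) were higher in 2 of 8 genes and lower in none. One of these calls (limma adjusted p = 0.049, with ST and MTST overlapping) was lost on TPM without factors (0.26) and in most other settings, which leaves 1 of 8.

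On the hormone signalling map, a serine/threonine protein phosphatase had the largest change of the genes without overlap. It had 46.4, 120 and 90.7 normalised TPM in ST, 11.7, 14.9 and 18.3 in MTST and 2.72 to 4.34 in CK (log2 fold change -2.36, SE 0.31, limma adjusted p = 0.00051). The map as a whole, with 37 of 248 genes higher (14.9%) and 40 lower (16.1%), was near the shares of all genes. The GO term response to abscisic acid had 36 of 228 genes higher (15.8%) and 48 lower (21.1%).

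Ethylene is made from methionine through 1-aminocyclopropane-1-carboxylate (ACC), and ACC synthase is usually the rate-limiting enzyme. Of 11 annotated ACC synthase genes, 4 were tested and all 4 were lower in MTST. The fourth, given below, passed the filter only through its ST libraries, so its fall adds no support. The first had 15.4, 26.6 and 14.1 normalised TPM in ST, 1.5, 0.946 and 1.36 in MTST and 1.19 to 1.87 in CK (log2 fold change -3.07, SE 0.23, limma adjusted p = 4.8e-05). The second had 31.4, 53.2 and 33.5 in ST, 5.47, 2.0 and 6.10 in MTST and 0.185 to 0.542 in CK (log2 fold change -2.93, SE 0.32, limma adjusted p = 0.00021). The third had 14.7, 11.4 and 11.1 in ST and 2.09, 1.16 and 0.860 in MTST (log2 fold change -2.52, SE 0.22, limma adjusted p = 8.2e-05). In these genes, every ST library was several times above every MTST library.

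The fourth ACC synthase gene was weak, at 1.49 to 1.88 normalised TPM in ST, 0.0487 to 0.138 in MTST and at most 0.0561 in CK. It was tested only because of its level in ST. A further gene with the GO term ethylene biosynthetic process had 59.3, 121 and 82.5 in ST and 6.62, 5.78 and 8.76 in MTST, below the 8.67 to 14.2 of CK in 2 of 3 libraries. Its log2 fold change was -3.42 (SE 0.25, limma adjusted p = 4.6e-05). ACC oxidase makes ethylene from ACC. The more abundant of its 2 tested genes passed neither way, at 608, 676 and 700 in ST and 539, 592 and 522 in MTST (log2 fold change -0.26, SE 0.10, limma adjusted p = 0.067). On TPM without factors this gene was lower (log2 fold change -0.50, limma adjusted p = 0.002). The other was lower, from 485, 377 and 422 in ST to 190, 148 and 163 in MTST. Among 40 genes with the GO term response to ethylene, 6 were higher and 9 lower.

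**Figure D3:**
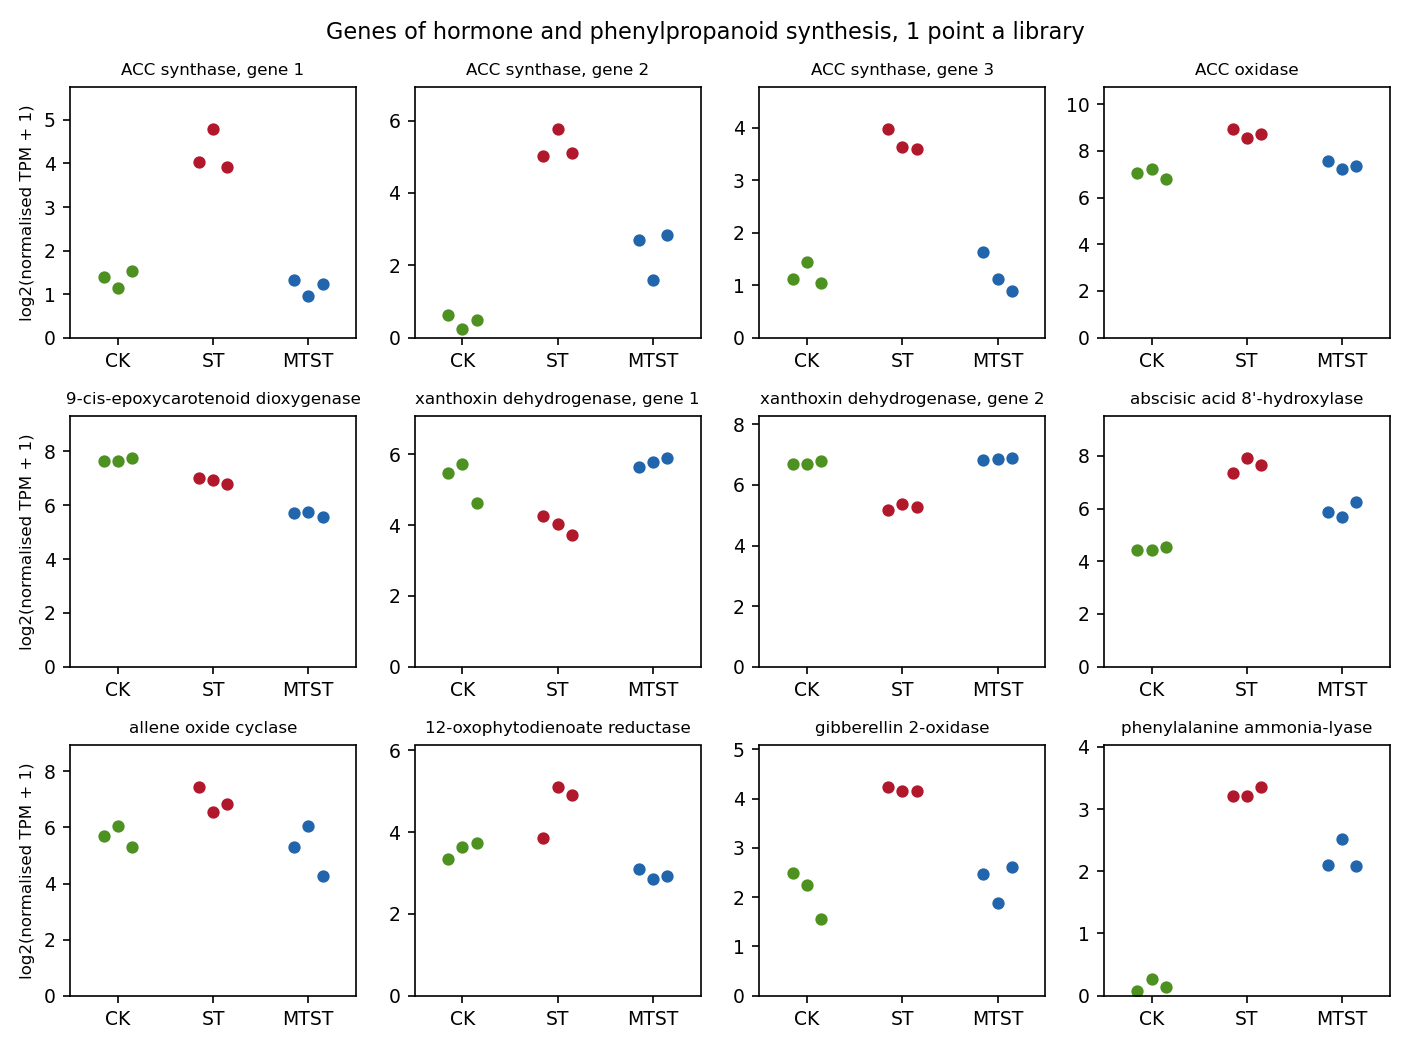
Level of 12 genes in every library, as log2(normalised TPM + 1) (y axis, from 0) for CK, ST and MTST (x axis), with 1 point a library. The genes are the called members of each annotated family with the largest absolute log2 fold change and a mean of at least 5 normalised TPM in ST or MTST. ACC synthase, ACC oxidase, 9-cis-epoxycarotenoid dioxygenase, abscisic acid 8'-hydroxylase, allene oxide cyclase, 12-oxophytodienoate reductase, gibberellin 2-oxidase and phenylalanine ammonia-lyase are lower in MTST than in ST, and both xanthoxin dehydrogenase genes are higher.

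Jasmonic acid is made from linolenic acid in the chloroplast and the peroxisome. Of 22 genes with the GO term jasmonic acid biosynthetic process, none was higher and 12 were lower, with a median of -0.42. On the map of alpha-linolenic acid metabolism, 6 of 49 were higher and 17 lower. The order of the pathway is lipoxygenase, allene oxide synthase, allene oxide cyclase and 12-oxophytodienoate reductase. At the first step the genes were split, with 1 of 8 linoleate 13S-lipoxygenase genes higher, 2 lower and 5 past neither threshold. Both genes of the second step, all 3 of the third and 2 of 3 of the fourth were lower, and none was higher.

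The most abundant allene oxide synthase gene had 80.7, 62.2 and 50.2 normalised TPM in ST, 35.3, 47.9 and 23.2 in MTST and 85.4 to 110 in CK (log2 fold change -0.87, SE 0.24, limma adjusted p = 0.022). This call was lost without ST replicate 1, without MTST replicate 1 and without MTST replicate 3. An allene oxide cyclase gene had 172, 91.8 and 114 in ST, 38.6, 64.6 and 18.3 in MTST and 38.3 to 64.5 in CK (log2 fold change -1.73, SE 0.39, limma adjusted p = 0.0093). A 12-oxophytodienoate reductase gene had 13.6, 33.3 and 28.9 in ST and 7.63, 6.21 and 6.6 in MTST, with 9.15 to 12.4 in CK (log2 fold change -1.66, SE 0.27, limma adjusted p = 0.0017). ST and MTST did not overlap in any of the 3 genes, while MTST and CK overlapped in the allene oxide cyclase gene. The lipoxygenase gene that rose had 94.6 to 102 in ST and 187 to 210 in MTST (log2 fold change 0.97, SE 0.08, limma adjusted p = 5.3e-05).

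The TIFY family includes the JAZ proteins, which repress jasmonic acid responses until the hormone triggers their removal, and JAZ genes are themselves induced by the hormone. Names of the 26 *EjTIFY* genes were taken from the study's list, and 25 were tested. Of these, 5 were lower, 3 were higher and 17 passed neither way. All 5 lower genes were JAZ genes. *EjJAZ4* had 22.4, 14.8 and 18.4 normalised TPM in ST, 6.06, 8.70 and 4.94 in MTST and 2.51 to 4.18 in CK (log2 fold change -1.38, SE 0.22, limma adjusted p = 0.0014). *EjJAZ6* had 11.1, 12.6 and 7.47 in ST and 4.33, 3.17 and 1.21 in MTST (log2 fold change -1.61, SE 0.31, limma adjusted p = 0.0043). *EjJAZ8* had 109, 92.5 and 90.6 in ST and 40.3, 37.3 and 22.7 in MTST (log2 fold change -1.55, SE 0.24, limma adjusted p = 0.0013).

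*EjJAZ13* (log2 fold change -1.16) and *EjJAZ3* (-0.75) were lower with adjusted p values of 0.021 and 0.031 in limma, and these calls were lost without single libraries. *EjJAZ13* was lost without ST replicate 1 or MTST replicate 3. *EjJAZ3* was lost without ST replicate 1 or 3, or without MTST replicate 2 or 3. The 3 higher genes were *EjZML4* (0.50), *EjTIFY2* (0.36) and *EjZML1* (0.27), and none of them was called on TPM without factors. The most abundant member, *EjJAZ15*, had 956, 822 and 780 in ST and 1080, 958 and 832 in MTST and passed neither way (limma adjusted p = 0.43). *EjJAZ2* had 0.204 to 1.17 in ST and 1.27 to 2.04 in MTST (limma adjusted p = 0.083), and *EjJAZ9* had 39.8 to 57.8 in ST and 26.8 to 45.9 in MTST (limma adjusted p = 0.32).

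**Figure D4:**
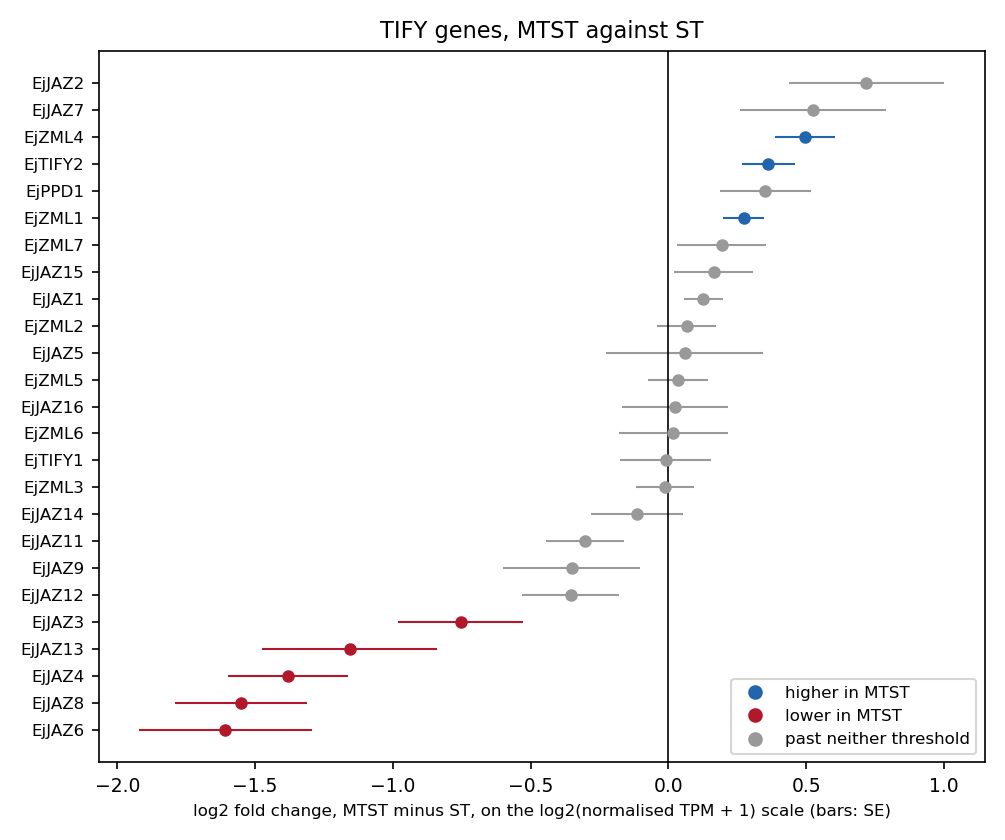
Log2 fold change of MTST over ST on the log2(normalised TPM + 1) scale (x axis) for the 25 tested TIFY genes (y axis), with bars of 1 SE. The 5 genes that were lower in limma (red) are JAZ genes at -0.75 to -1.61. The 3 higher genes (blue) lie at 0.27 to 0.50, and grey genes passed neither threshold.

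Gibberellin 2-oxidases inactivate gibberellins, the growth-promoting hormones. Of 7 tested genes, 3 were lower and 1 higher. The largest fall was from 17.8, 16.9 and 16.7 normalised TPM in ST to 4.55, 2.70 and 5.11 in MTST (log2 fold change -1.85, SE 0.25, limma adjusted p = 0.0006), with 1.95 to 4.64 in CK. The single higher gene had 3.21 to 4.65 in ST and 8.16 to 9.90 in MTST. Enzymes that make gibberellins were also tested, with counts on normalised TPM. Of 3 gibberellin 3-beta-dioxygenase genes, 2 were lower and none higher. They were weak, with summed levels of 5.71 to 13.8 in ST and 3.13 to 4.03 in MTST. Of 3 gibberellin 20-oxidase genes, 1 was higher and none lower. The plant's own synthesis of melatonin ends with acetylserotonin O-methyltransferase. Of 3 tested genes with this term, 2 were lower and none higher. The most abundant had 74.6, 133 and 134 in ST and 41.5, 55.7 and 55.7 in MTST (log2 fold change -1.11, SE 0.22, limma adjusted p = 0.0051).

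**Figure D5:**
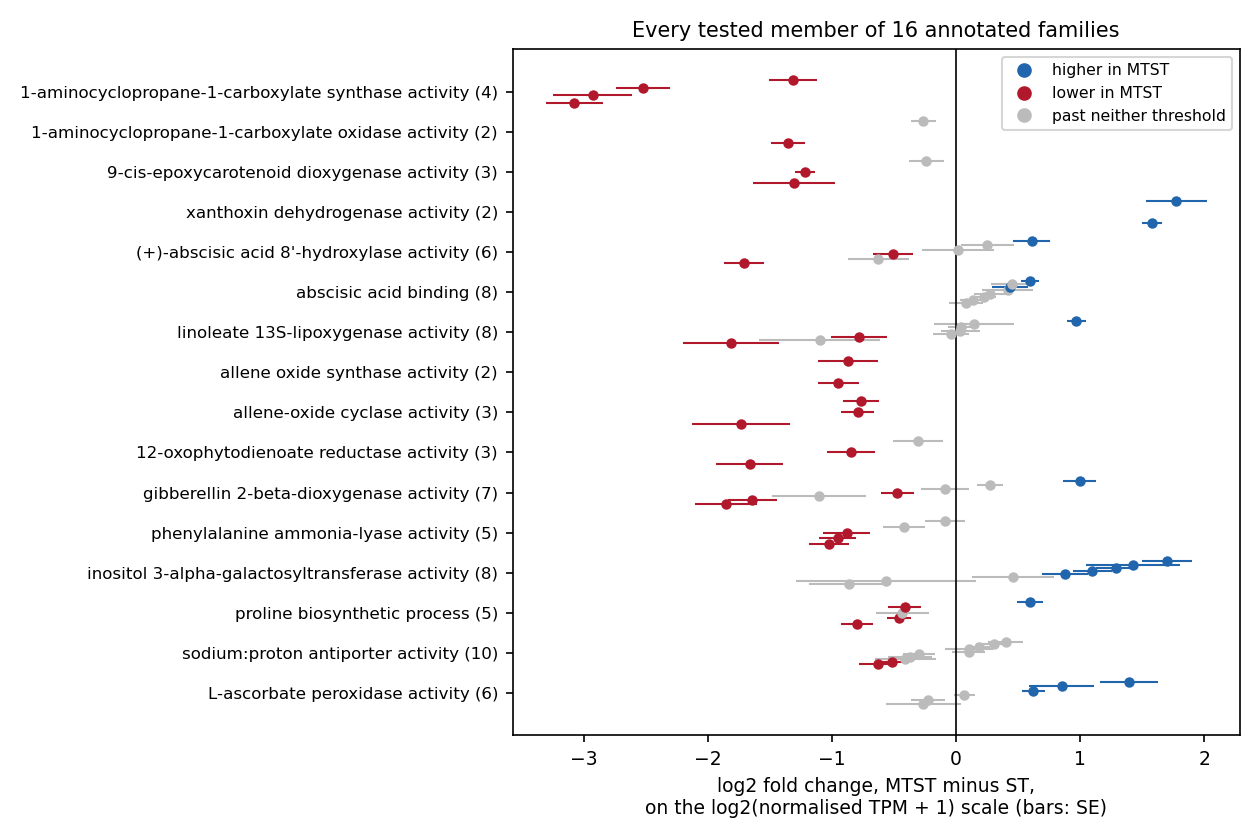
Log2 fold change of MTST over ST on the log2(normalised TPM + 1) scale (x axis) of every tested member of 16 annotated families (y axis, with the number tested), with bars of 1 SE. Blue points were higher and red points lower in limma at an adjusted p of at most 0.05, and grey points passed neither way. All allene oxide synthase and allene oxide cyclase genes are lower and both xanthoxin dehydrogenase genes are higher. All tested ACC synthase genes are also lower, but the weakest of them passed the filter only through ST. Sodium:proton antiporter genes lie between -0.63 and 0.40.

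Several lists of the leaf surface and the cell wall had more lower than higher genes. Cutin, suberin and wax form the barrier against water loss. On their map 10 of 16 genes were lower and 1 was higher, with a median log2 fold change of -1.24, and this was the largest share of lower genes (62.5%) of the 114 maps. In ST against CK, 12 of these genes were higher and 2 lower. An alcohol-forming fatty acyl-CoA reductase, which makes the alcohols of waxes and suberin, had 42.7, 7.29 and 25.7 normalised TPM in ST, 2.15, 2.57 and 1.99 in MTST and 0.131 to 0.320 in CK (log2 fold change -2.72, SE 0.47, limma adjusted p = 0.0023). An alkane 1-monooxygenase had 18.0, 2.85 and 11.3 in ST and 0.420, 0.623 and 0.398 in MTST. In both genes ST replicate 2 was the lowest of the ST libraries. The summed level of the map was 480.8 ± 182 in ST and 256 ± 34.5 in MTST (SD, n = 3), with ST replicate 2 at 310.9 and the highest MTST library at 295.2.

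The GO term syncytium formation is attached in *Arabidopsis thaliana* to expansins, proteins that loosen the wall. Of its 11 tested genes, 8 were lower and none higher, with a median of -1.47. The most abundant of its named genes had 277, 224 and 237 normalised TPM in ST and 62.5, 95.1 and 39.5 in MTST (log2 fold change -1.97, SE 0.49, limma adjusted p = 0.013), and this call was lost without MTST replicate 3. Another had 16.5, 63.9 and 40.6 in ST and 4.06, 7.07 and 3.29 in MTST. MTST replicate 2 had a sum of 431.4 over this list, against 163.7 and 167.5 in the other MTST libraries.

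Xyloglucan:xyloglucosyl transferases cut and rejoin the xyloglucan of the wall, and 5 of 8 were lower and 2 higher. A lower one had 65.4, 69.9 and 59.7 normalised TPM in ST, 22.6, 29.0 and 19.5 in MTST and 8.43 to 12.9 in CK (log2 fold change -1.43, SE 0.17, limma adjusted p = 0.00033). A higher and more abundant one had 93.8, 100 and 87.3 in ST, 211, 210 and 196 in MTST and 245 to 303 in CK (log2 fold change 1.13, SE 0.10, limma adjusted p = 8.6e-05). The members of this family thus changed in both directions, and its summed level was 790.8 ± 49.9 in ST and 1068 ± 24.2 in MTST (SD, n = 3). Among beta-galactosidases, which trim wall galactans, 9 of 17 were lower and 1 higher. Pectinesterases, which demethylate pectin, were lower in 7 of 22 genes and higher in none.

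Phenylpropanoids give lignin and many defence compounds. On this map 38 of 92 genes were lower and 10 higher, with a median of -0.36, and in ST against CK 51 were higher and 11 lower. Phenylalanine ammonia-lyase is the entry enzyme, and 3 of its 5 genes were lower and none higher. The most abundant of them had 290, 265 and 261 normalised TPM in ST, 165, 137 and 121 in MTST and 101 to 150 in CK (log2 fold change -0.95, SE 0.15, limma adjusted p = 0.0014). Cinnamyl-alcohol dehydrogenase makes the lignin alcohols, and of its 3 tested genes 1 was lower and 2 passed neither way. The lower gene had 26, 90.6 and 61.7 in ST, 7.91, 8.61 and 6.81 in MTST and at most 0.665 in CK (log2 fold change -2.62, SE 0.38, limma adjusted p = 0.00089). The summed level of this family changed less, from 116, 185 and 145 in ST to 118, 116 and 105 in MTST. The map upstream, the synthesis of phenylalanine, tyrosine and tryptophan, had 21 of 56 genes lower and 7 higher.

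The largest single fall among annotated genes without overlap was in Ej00089037, on the map of amino sugar and nucleotide sugar metabolism. It had 52.9, 97.3 and 93.6 normalised TPM in ST, 1.0, 0.693 and 1.27 in MTST and 21.5 to 72.3 in CK (log2 fold change -5.33, SE 0.38, limma adjusted p = 4.6e-05). In this gene MTST was below CK as well as below ST. Ej00092451, a chitinase, which degrades the chitin of fungal walls, had 6.86, 97.4 and 116 in ST, 1.2, 0.113 and 1.14 in MTST and at most 0.265 in CK (log2 fold change -4.69, SE 0.83, limma adjusted p = 0.0027). ST replicate 1 was far below the other ST libraries for this gene, and the gene was not called by limma-voom on recovered reads.

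Another chitinase was among the more abundant genes of ST. It had 515, 2280 and 2110 normalised TPM in ST and 122, 62.0 and 95.3 in MTST (log2 fold change -3.90, SE 0.49, limma adjusted p = 0.00044), again with the lowest ST value in replicate 1. Over the 7 tested chitinases, 3 were lower and 2 were higher, and no chitinase was higher on TPM without factors. On the whole amino sugar map 42 of 145 genes were lower and 15 higher. The GO term response to chitin had 13 of 38 genes lower and 8 higher, and response to fungus 39 of 142 lower and 22 higher.

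Sugar and osmolyte genes were divided. On the galactose map 20 of 58 genes were lower and 7 higher. A beta-fructofuranosidase (invertase), which splits sucrose, had 43.4, 112 and 89.8 normalised TPM in ST, 12, 6.10 and 11 in MTST and 4.56 to 5.47 in CK (log2 fold change -2.90, SE 0.32, limma adjusted p = 0.00024). Galactinol synthase (inositol 3-alpha-galactosyltransferase) starts the synthesis of the raffinose sugars, which act as osmolytes, and 5 of 8 genes were higher and none lower. The most abundant of the higher genes had 124, 142 and 127 in ST, 296, 255 and 294 in MTST and 269 to 430 in CK (log2 fold change 1.10, SE 0.16, limma adjusted p = 0.00079). The largest rise in the family was from 11.0, 14.3 and 7.14 in ST to 31.4, 37.1 and 40.4 in MTST, with 182 to 237 in CK.

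The enzyme that extends raffinose to stachyose (galactinol-raffinose galactosyltransferase) was lower, from 31.1, 47.5 and 34.4 normalised TPM in ST to 8.34, 8.92 and 8.76 in MTST (log2 fold change -1.98, SE 0.15, limma adjusted p = 4.8e-05). Proline is the best-known osmolyte of salt-treated plants. Of 5 tested genes with the GO term proline biosynthetic process, 3 were lower and 1 higher. The largest fall was from 58.4, 47.5 and 45.8 in ST to 30.8, 27.3 and 27.5 in MTST (log2 fold change -0.80, SE 0.13, limma adjusted p = 0.0017), with 27.2 to 35.9 in CK.

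Water channels (aquaporins) move water across membranes. Of 19 tested genes, 8 were lower and none higher, with a median of -0.79, and in ST against CK 11 were higher and 1 lower. One of them had 19.1, 39.0 and 32.5 normalised TPM in ST, 8.17, 9.54 and 7.4 in MTST and 3.39 to 3.69 in CK (log2 fold change -1.68, SE 0.22, limma adjusted p = 0.00051). The most abundant named member had 193, 125 and 142 in ST and 72.6, 97.9 and 62.7 in MTST. Both were picked for having no overlap between ST and MTST.

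Ion transport genes showed few rises. Of 53 genes for potassium ion transport, 12 were lower (22.6%) and 4 higher (7.55%), against 13.8% and 15.7% of all genes tested. A potassium:proton antiporter, also annotated with nitrate transport and leaf senescence, had 76.2, 296 and 218 normalised TPM in ST, 15, 1.15 and 17.7 in MTST and at most 0.308 in CK (log2 fold change -4.31, SE 0.75, limma adjusted p = 0.0023). Of 9 genes for sodium ion transport, 1 was higher and 1 lower (11.1% each). Their median was 0.185, and it became -0.041 on TPM without factors. Sodium:proton antiporters export sodium or store it in the vacuole. Of 10 tested genes, 2 were lower, by 0.63 and 0.52 on the log2 scale, and none was higher. The most abundant of these genes had 50.7 to 78.5 in ST and 49.7 to 52.2 in MTST and passed neither way (limma adjusted p = 0.12). The ABC transporter map had 11 of 24 genes lower and 1 higher.

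The redox lists were split. On the glutathione map 16 of 73 genes were higher and 19 lower. On the ascorbate map 14 of 55 were higher and 8 lower, and the order reversed to 9 and 19 on TPM without factors. Ascorbate peroxidase removes hydrogen peroxide, and 3 of 6 genes were higher and none lower. The largest rise was from 87.6, 85.5 and 81.6 normalised TPM in ST to 240, 220 and 215 in MTST (log2 fold change 1.39, SE 0.24, limma adjusted p = 0.002), with 49.3 to 115 in CK. Another gene on the ascorbate and glutathione maps was more abundant, with 442, 526 and 535 in ST, 1310, 1280 and 1160 in MTST and 755 to 947 in CK (log2 fold change 1.32, SE 0.12, limma adjusted p = 0.0001). In both genes MTST lay above CK as well as above ST. Of 10 superoxide dismutase genes, 2 were higher and 2 lower. Of 2 tested catalase genes, 1 was higher on normalised TPM and 1 passed neither way. The higher gene was weak, at 2.30 to 3.85 in ST and 5.49 to 10.0 in MTST.

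Some protein folding genes rose strongly. Chaperones hold or refold proteins under stress, and the GO term chaperone binding marks proteins that bind them. Of 32 genes with this term, 16 were higher and 1 was lower. On TPM without factors 8 were higher and 6 lower. On the map of protein processing in the endoplasmic reticulum, 47 of 254 were higher (18.5%) and 28 lower (11.0%). Over all genes tested these shares were 15.7% and 13.8%. The order on this map reversed to 26 and 81 on TPM without factors. The gene of this map with the largest rise had 311, 325 and 399 normalised TPM in ST, 2650, 1530 and 1860 in MTST and 133 to 226 in CK (log2 fold change 2.51, SE 0.23, limma adjusted p = 0.0001). A gene of this map annotated with the response to heat had 118, 184 and 172 in ST, 805, 510 and 549 in MTST and 148 to 286 in CK (log2 fold change 1.96, SE 0.26, limma adjusted p = 0.00057). A gene annotated with unfolded protein binding and copper binding had 41.4, 58.1 and 56.1 in ST, 171, 111 and 110 in MTST and 42.3 to 68.1 in CK. In these 3 genes, MTST was above both other groups, and MTST replicate 1 was the highest library.

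Transcription factors were near the background, with 191 of 1076 higher and 176 lower, and the split was 97 to 335 on TPM without factors. The largest rise of all annotated genes without overlap was in one of them, Ej00011860. It had 2.63, 2.74 and 2.97 normalised TPM in ST, 57.9, 32.6 and 33.6 in MTST and 2.76 to 4.48 in CK (log2 fold change 3.44, SE 0.22, limma adjusted p = 3e-05). It was low in both other groups and high in all MTST libraries. The next largest rise was in Ej00029203, on the phagosome map, with 1.13, 1.67 and 1.98 in ST, 17.3, 26 and 24.6 in MTST and 27.3 to 110 in CK (log2 fold change 3.18, SE 0.42, limma adjusted p = 0.00055). Among falls, a transcription factor gene had 35.3, 43.0 and 42.0 in ST, 3.15, 4.02 and 6.65 in MTST and 2.54 to 3.72 in CK (log2 fold change -2.92, SE 0.21, limma adjusted p = 4.6e-05).

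The most abundant gene of both ST and MTST was on the carbon fixation map, and its product is annotated to the chloroplast. It took 1.53% to 1.57% of TPM in ST, 2.28% to 2.48% in MTST and 3.41% to 3.51% in CK. A copper- and zinc-binding gene took 0.178%, 0.753% and 0.566% of TPM in the ST libraries and 2.17%, 2.62% and 2.26% in the MTST libraries, near the 1.52% to 2.27% of CK. Its log2 fold change on normalised TPM was 2.71 (SE 0.47, limma adjusted p = 0.0023). A chlorophyll-binding antenna gene was also among the most abundant, at 0.764% to 0.816% in ST and 1.09% to 1.18% in MTST.

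Other large lists are given with their shares. The GO term response to salt stress had 42 of 292 genes higher (14.4%) and 40 lower (13.7%), and 15 higher and 110 lower on TPM without factors. These shares were near those of all genes on the first scale. Response to water deprivation had 30 of 161 higher (18.6%) and 29 lower (18.0%), and 17 higher and 57 lower on TPM without factors. Ribosomal genes were higher in 40 of 327 (12.2%) and lower in 23 (7.03%), with a median of 0.009, and the split was 15 to 121 on TPM without factors. The GO term defense response had 66 of 367 genes higher (18.0%) and 76 lower (20.7%). Aminoacyl-tRNA synthesis, which charges transfer RNAs for translation, had 11 of 87 higher (12.6%) and none lower, and 4 higher and 22 lower on TPM without factors. On the proteasome map 10 of 84 genes were lower (11.9%) and 2 higher (2.38%).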

How the data were processed

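RNA of 9 samples was sequenced (CK, ST and MTST, 3 each). The labels give plant leaf as the tissue and total RNA as the molecule, but the description of every sample also holds the word nucleus, with no nuclear isolation in the methods read here, and the samples were treated as whole leaf. Per the study's methods, the authors used Trim-Galore and Trimmomatic for trimming, HISAT2 for alignment (JFZ genome of loquat) and featureCounts of Rsubread for counting, and deposited FPKM. The sources used here do not give versions or how reads shared by near-identical genes were treated, so close copies are uncertain. The table also holds the authors' own fold changes, p-values and group averages, which were not used.

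FPKM was rescaled here to TPM and divided by median-of-ratios factors over all 9 libraries (0.8592 to 1.2098). Whole reads could be recovered from the deposited FPKM, by finding the step that 1 read adds, for 31458 of 31458 genes above 0 (tolerance 1e-05). At the median gene length of 1593 bases, 1 TPM stands for about 15.3 reads, so differences in weaker genes may not be detectable at this depth.

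Genes with an FPKM of at least 1 in at least 3 libraries entered 1 fit of the 9 libraries on log2(normalised TPM + 1) by group, without covariates, with limma 3.58.1 (eBayes with trend, R 4.3.3). A pseudocount of 1 understates the change of weak genes. P-values were adjusted by Benjamini-Hochberg over the 22697 genes tested, and the script was tested on simulated data. Lists are described by counts and medians, with no set test. Named genes are the 26 TIFY genes, up to 4 called members per list by absolute fold change with a mean of at least 5 normalised TPM and no overlap of ST with MTST, the 2 largest rises and falls, and the 5 most abundant genes of ST and MTST. Members and lists were chosen with earlier results of these data known. The enzyme families with all their members, and the lists for jasmonic acid synthesis, syncytium formation, beta-galactosidase, water channel, plastoglobule, chlorophyll biosynthetic process, chaperone binding, iron homeostasis and responses to salt stress, water deprivation, abscisic acid, ethylene, chitin and fungus were added after their values had been seen. The maps of thiamine and sulfur metabolism were taken from a ranking of all maps. Tables and figures were made with pandas 2.3.3, matplotlib 3.10.9 and numpy 2.4.6 under Python 3.11.15.

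The counts of genes called and the called genes followed by name or list were recomputed under 19 alternative settings, where the gene passed the filter. Counts and medians of the lists were recomputed in the same way, and only those on TPM without factors are reported here. The maps of thiamine and sulfur metabolism were recomputed only on TPM without factors. The settings were another pseudocount, other filters, other scalings, a replicate block, only the ST and MTST libraries, no trend, limma-voom on recovered reads, and each library left out.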

Additional observations from a re-analysis of the deposited data

How the results depend on the processing

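Scaling moved the split between higher and lower genes most, and leaving out a library moved the total number called most. On TPM without library factors, 1854 genes were higher and 6912 lower in MTST than in ST (262 and 1623 at 2-fold), and on FPKM as deposited 2308 and 5281 (277 and 1257 at 2-fold). Higher genes were then 21.1% and 30.4% of the calls, against 53.2% with factors, and no gene was called in the opposite direction. Which scale is nearer to RNA per cell was not tested. Leaving out 1 library gave 2580 to 3835 higher and 1847 to 3443 lower genes, the lowest without ST replicate 3, and at 2-fold 462 to 592 and 770 to 1116. Of 356 called genes followed by name or list, 282 kept their call in every setting, out of 19, in which they were tested. 1 changed sign, a nucleosome-binding gene (log2 fold change 0.37), at -0.045 under quantile normalisation (limma adjusted p = 0.76). Same-numbered libraries did not deviate together (correlations of -0.157 to 0.087). With 3 libraries a group, this check is too weak to tell whether the samples share more than a number. With a replicate block 3327 genes were higher and 2851 lower. Depth limits weak genes: at the median length 1 TPM is about 15.3 reads. With 3 libraries a group, an exact permutation test of 1 gene cannot go below p = 0.1.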
